A study of Sus scrofa with 6 samples.

Results

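The genes described here are the transcriptional co-activators YAP1 and WWTR1 (TAZ), the DNA-binding partners TEAD1 and TEAD3, and 6 genes widely used as targets of the YAP/TAZ-TEAD complex: CCN1, CCN2, ANKRD1, AMOTL2, AXL and LATS2. They were taken by gene name from the deposited expression table, and all 10 were found among its 31908 Ensembl pig gene IDs, with 30 of its 63041 listed transcripts. RNA was sequenced from IPEC-J2 cells, a non-transformed epithelial line from the jejunum of newborn piglets, in 6 libraries. The CON group (3 libraries) received PBS and the CDCA group (3 libraries) received 50 μM chenodeoxycholic acid, a primary bile acid, each for 24 h. The cells carried no transgene or deletion according to the labels. All libraries came from 1 cell line, and the study calls the libraries of a group biological replicates. Neither it nor the labels say whether they were cultures grown separately, so the p-values measure the spread between these libraries. The values are TPM, a transcript level scaled for transcript length and for the library, and those of a gene's listed transcripts were summed.

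The Hippo pathway is a kinase cascade that restrains growth in epithelia. STK3 and STK4 act with SAV1 on LATS1 and LATS2, which phosphorylate YAP1 and WWTR1 and so keep them in the cytoplasm or send them to degradation. When the cascade is quiet, as in spread cells at low density, YAP1 and WWTR1 enter the nucleus and bind TEAD factors, which carry the DNA-binding domain that they lack. In the intestine this axis is best known for its part in regeneration after injury. The activity of YAP1 and WWTR1 is set largely by where the proteins are in the cell, which mRNA levels do not show.

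The study sequenced these cells to look for mechanisms behind the effects of CDCA on their function. Genes that averaged 1 TPM or more across all 6 libraries were tested with limma on log2(TPM + 1), and a gene is said to have risen or fallen where its FDR (p adjusted by the Benjamini-Hochberg method over all 8708 tested genes) was under 0.05. Between 351770 and 366073 TPM were listed for each library, out of the 1000000 that all transcripts together would make. Read counts per gene were not used here, so the number of reads behind each value is unknown, although the study reports library totals. Since some listed transcripts of widely used genes stand at 0 in every library, such as those of MOB1A and TAOK3, a 0 is given only as the listed value. The mRNAs encoded by mitochondrial DNA took up 13.8% to 15.0% of each CON library's listed TPM, against 2.90% to 3.45% for CDCA, and their part in the results for the members was not tested beyond the rescaling that follows. With totals computed without them, the median log2 fold change of all tested genes moved from 0.05 to -0.08, and the share of higher genes among those past the test moved from 55.0% to 38.6%.

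Compared to the CON group, CCN2 fell by 62.9% in the CDCA group, TEAD1 fell by 34.2% and TEAD3 fell by 31.3%, while CCN1 and LATS2 fell less. No member rose. YAP1 had nearly equal means in both groups, and WWTR1 and ANKRD1 were listed near 0 throughout. Of the 10 genes, 8 reached the level for testing, and 5 of these 8 fell (62.5%), whereas 23.9% of all tested genes fell and 29.3% rose, 53.2% in either direction. The count of members that fell was 3 without CDCA replicate 3, where TEAD3 and LATS2 lost their calls, and 3 when each gene was represented by its most abundant transcript, where TEAD1 and TEAD3 did. By limma, no member rose at an unadjusted p under 0.05 either. The median log2 fold change was -0.37 over the 8 tested members and 0.05 over all tested genes. The members had been picked with earlier results of these data known, so these shares are a description. In bulk RNA, fewer cells that express a gene and less of its RNA per cell cannot be told apart.

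**Figure D1:**
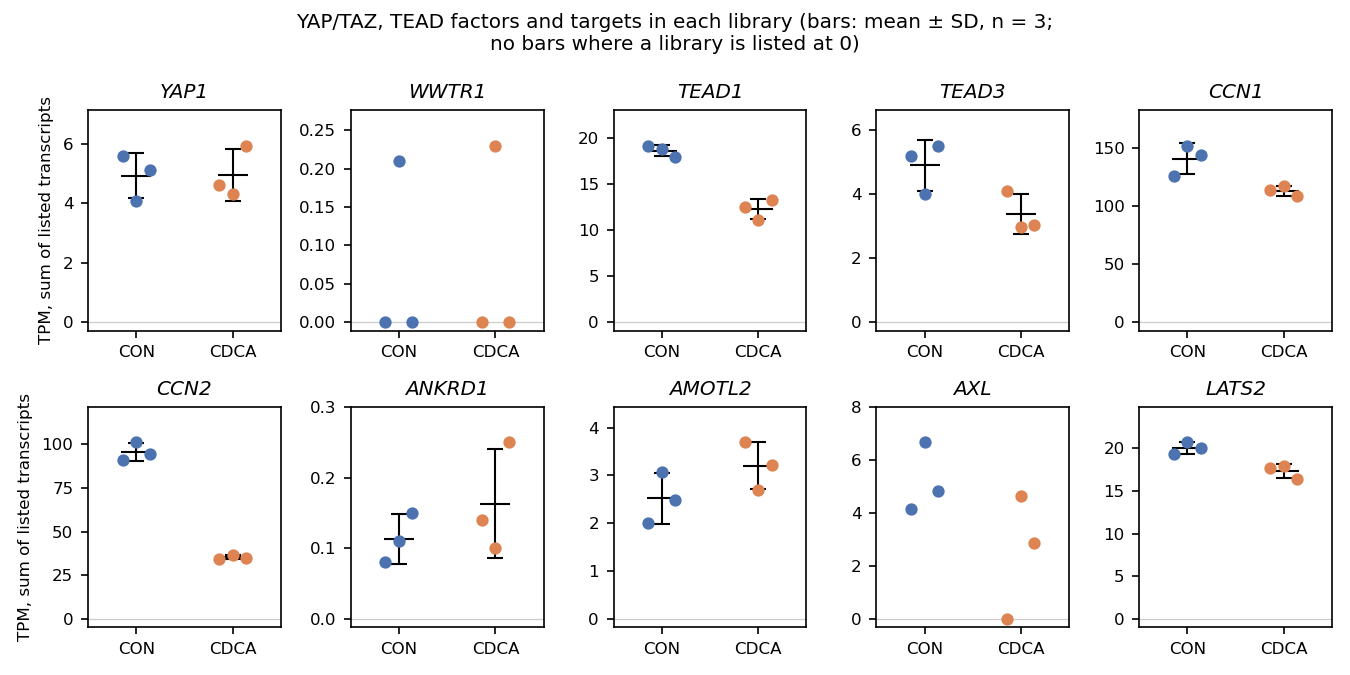
TPM of each of the 10 genes in each of the 6 libraries, with CON in blue and CDCA in orange, on linear axes that differ between panels; bars give mean ± SD of 3 libraries and are left out where a library is listed at 0. The groups are apart for TEAD1, CCN1, CCN2 and LATS2, with the CDCA points lower, and they overlap for the other 6 genes.

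The levels spanned a wide range. In CON the order of mean TPM was CCN1, CCN2, LATS2, TEAD1, AXL, YAP1, TEAD3, AMOTL2, ANKRD1 and WWTR1. CCN1 lay above 96.0% of the tested genes by its mean over all libraries and CCN2 above 92.1%, whereas YAP1 lay above 39.9% and AMOTL2 above 25.2%. AXL, YAP1 and TEAD3 overlapped in CON, with values between 3.99 and 6.67 TPM, and so did ANKRD1 and WWTR1, which were at most 0.21 TPM there. In CDCA the 2 leading genes kept their order, but CCN2 came closer to LATS2 and TEAD1.

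The co-activators themselves did not differ detectably. YAP1 (ENSSSCG00000031429) had 5.60, 4.09 and 5.11 TPM in the CON libraries and 4.62, 4.30 and 5.94 TPM in the CDCA libraries. The groups overlapped, with the highest value in CDCA replicate 3 and the lowest in CON replicate 2. Mean YAP1 was 4.93 ± 0.77 TPM for CON and 4.95 ± 0.87 TPM for CDCA (SD, n = 3 each). The log2 fold change of 0.003 had a 95% interval from -0.34 to 0.34 (limma FDR 0.99). The sign of this value turned under 5 of 13 alternative settings, among them totals without the mitochondrial mRNAs (-0.12). WWTR1 (ENSSSCG00000011704), the paralogue of YAP1, was listed with 0, 0.21 and 0 TPM for CON and with 0, 0.23 and 0 TPM for CDCA. It has 1 listed transcript, and it was too low to test.

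TEAD1 (ENSSSCG00000013399), which tethers YAP1 and WWTR1 to DNA, had 19.18, 18.80 and 17.95 TPM in the CON libraries and 12.49, 11.07 and 13.22 TPM in the CDCA libraries. All CDCA values were well below all CON values, and the libraries of each group lay close together. TEAD1 fell from 18.6 ± 0.63 to 12.3 ± 1.1 TPM (SD, n = 3 each), which is -0.57 ± 0.07 (SE) as a log2 fold change (limma FDR 0.00083). TEAD3 (ENSSSCG00000001544), its relative with the same DNA-binding domain, had 5.18, 3.99 and 5.51 TPM in CON and 4.08, 2.98 and 3.02 TPM in CDCA. CDCA replicate 1 lay just above CON replicate 2, so the groups overlapped. TEAD3 fell by 31.3%, which is -0.43 ± 0.14 (SE) as a log2 fold change (limma FDR 0.041). This call was lost under 7 of 13 alternatives, with an FDR of 0.11 without CON replicate 1, 0.12 without CON replicate 3, 0.115 without CDCA replicate 2 and 0.115 without CDCA replicate 3.

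The other TEAD genes, which are not among the 10, complete the family. TEAD4 fell from 10.4 ± 0.66 to 6.89 ± 0.93 TPM (SD, n = 3 each), which is -0.53 ± 0.10 (SE) as a log2 fold change (limma FDR 0.0049). TEAD2 had 0.73 to 1.40 TPM in CON and 1.40 to 1.83 TPM in CDCA, and did not pass the test (limma FDR 0.12). Summed over TEAD1 to TEAD4, the level was 35.38, 34.47 and 35.04 TPM in CON and 25.27, 23.05 and 23.90 TPM in CDCA. The family total was thus lower in every CDCA library, while TEAD1 made up similar shares of it, 51.2% to 54.5% in CON and 48.0% to 55.3% in CDCA. TEAD2 took 2.08% to 3.96% of the total in CON and 5.54% to 7.66% in CDCA.

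TEAD1 has 10 listed transcripts, of which 4 reached a mean of 1 TPM. The most abundant had 5.04, 9.40 and 3.64 TPM in CON and 4.16, 2.72 and 5.07 TPM in CDCA. Its share of TEAD1 was 26.3% in CON replicate 1 and 20.3% in CON replicate 3, and higher still in CON replicate 2. Yet the gene total varied little between the CON libraries, because the transcripts of rank 2 and rank 3 were lowest in CON replicate 2, where the most abundant was highest. The ratio of mean TPM in CDCA to that in CON was under 1 for each of the 7 most abundant transcripts, from 0.349 for rank 7 to 0.890 for rank 4. None of the 4 tested transcripts passed the test by itself (limma FDR 0.070 to 0.74). With the most abundant transcript in place of the gene sum, the log2 fold change of TEAD1 was -0.44 (limma FDR 0.30), so its fall was called on the total and on none of the 4 tested forms.

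**Figure D2:**
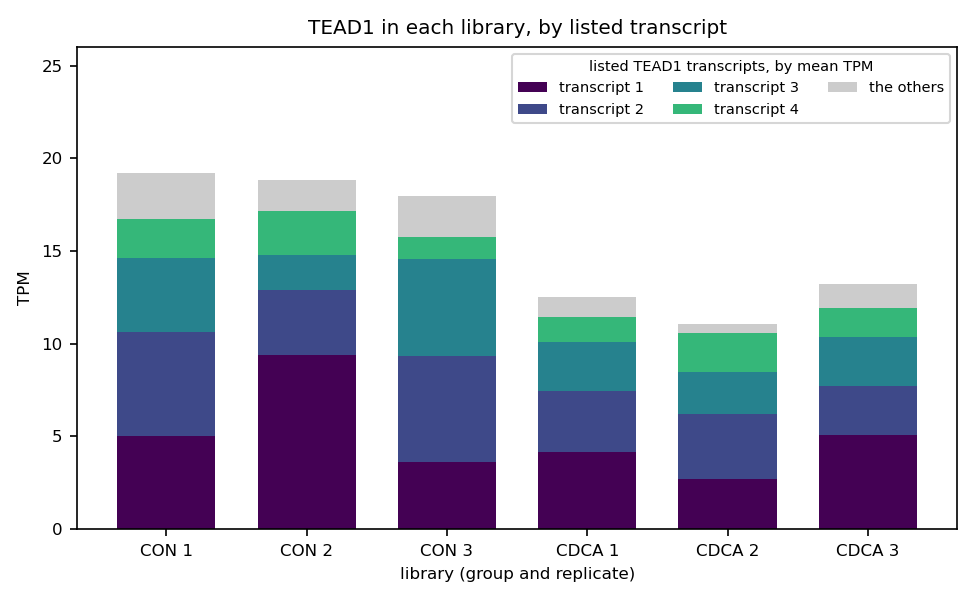
Stacked bars of TEAD1 TPM in each library, split into the 4 most abundant listed transcripts and the others. The totals are 17.95 to 19.18 TPM in CON and 11.07 to 13.22 TPM in CDCA, while the make-up differs between libraries of the same group.

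CCN2 (CTGF, ENSSSCG00000004192), a secreted matrix-associated protein and a direct YAP/TAZ-TEAD target, had 90.69, 101.02 and 94.60 TPM in the CON libraries and 34.46, 36.85 and 34.82 TPM in the CDCA libraries. All CDCA libraries lay far below all CON libraries. CCN2 fell from 95.4 ± 5.2 to 35.4 ± 1.3 TPM (SD, n = 3 each), a ratio of 0.371, which is -1.41 ± 0.05 (SE) as a log2 fold change (limma FDR 6.8e-06). It was the only member to pass the test with a log2 fold change over 1 in size, and 3.9% of all tested genes did so downward, 3.51% upward. Its fall ranked 153 among the 8708 tested genes. Across the 13 alternatives the value lay between -1.56 and -1.36, and 1 transcript carried 99.5% of the listed TPM of the gene. The summed level of the 7 markers of fibroblasts, cells in which CCN2 is also abundant, was 1.35 to 1.83 TPM in CON and 1.00 to 1.15 TPM in CDCA, so it was lower in CDCA, as CCN2 was. COL1A2 had 0.54 to 0.80 TPM in CON and 0.22 to 0.52 TPM in CDCA. COL1A1 had 0.72 to 0.94 TPM in CON and 0.54 to 0.73 TPM in CDCA, and LUM was at 0 throughout. PDGFRB went the other way, with 0.01 to 0.02 TPM in CON and 0.04 to 0.08 TPM in CDCA. All 7 markers averaged under 1 TPM, so they were too low to test. Their part in the result was not tested.

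CCN1 (CYR61, ENSSSCG00000006940), the closest relative of CCN2 among the members and likewise a secreted target, had 126.37, 152.46 and 144.27 TPM in CON and 114.06, 117.65 and 108.95 TPM in CDCA. The groups did not overlap, although CON replicate 1 came close to CDCA replicate 2. CCN1 fell by 19.5%, from 141 ± 13 to 114 ± 4.4 TPM (SD, n = 3 each), which is -0.31 ± 0.07 (SE) as a log2 fold change (limma FDR 0.012). The more abundant of its 2 listed transcripts fell (log2 fold change -0.33, limma FDR 0.018), and the other had a log2 fold change of -0.12 (limma FDR 0.15). The ratio of CCN2 to CCN1, which does not depend on how a library is scaled, was 0.718, 0.663 and 0.656 in CON and 0.302, 0.313 and 0.320 in CDCA. The ratio was lower in all CDCA libraries than in all CON libraries.

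The ratio of TEAD1 to YAP1 was 3.43, 4.60 and 3.51 in CON and 2.70, 2.57 and 2.23 in CDCA. Here too the groups did not overlap. Both ratios were chosen after the values were seen, and no share over other pairs of genes was computed, so they are a description.

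LATS2 (ENSSSCG00000036326), the kinase that phosphorylates YAP1 and WWTR1 and is itself a target gene, had 19.36, 20.68 and 20.02 TPM in CON and 17.63, 17.91 and 16.40 TPM in CDCA. The groups were apart by a small gap. LATS2 fell by 13.5%, which is -0.20 ± 0.06 (SE) as a log2 fold change (limma FDR 0.021). The call was lost without CON replicate 2 (FDR 0.074) and without CDCA replicate 3 (FDR 0.065), while the value was -0.35 with totals without the mitochondrial mRNAs. LATS1, its relative, had 1.88 to 3.80 TPM in CON and 2.93 to 3.28 TPM in CDCA, and its log2 fold change of 0.10 did not pass the test (limma FDR 0.68).

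AXL (ENSSSCG00000038806), a receptor tyrosine kinase for the ligand GAS6, had 4.17, 6.67 and 4.82 TPM in CON and 0, 4.64 and 2.86 TPM in CDCA. CDCA replicate 1 was listed at 0, and CDCA replicate 2 lay above the lowest CON library. AXL did not pass the test, with a log2 fold change of -1.14 and a 95% interval from -2.59 to 0.32 (limma FDR 0.16). Without CDCA replicate 1 the value was -0.40 (limma FDR 0.21). It has 1 listed transcript.

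AMOTL2 (ENSSSCG00000011643), an angiomotin that binds YAP1 at junctions and is also a target gene, had 2.0, 3.08 and 2.48 TPM in CON and 3.69, 2.70 and 3.22 TPM in CDCA. The groups overlapped. Its log2 fold change was 0.26, with a 95% interval from -0.09 to 0.61 (limma FDR 0.18). ANKRD1 (ENSSSCG00000010461), a nuclear ankyrin repeat protein and a much-used YAP reporter gene, had 0.08, 0.11 and 0.15 TPM in CON and 0.14, 0.10 and 0.25 TPM in CDCA. It was thus near 0 in all 6 libraries and was not tested. With no filter on low values it also did not pass (limma FDR 0.52).

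Of the 6 target genes, CCN1, CCN2 and LATS2 fell, AXL and AMOTL2 did not pass the test, and ANKRD1 was too low to test. For 4 of the 8 tested members all CDCA values were below all CON values, as for 27.8% of all tested genes. For none were they all above, as for 33.7% of all tested genes. Among the 12 listed transcripts of members that reached 1 TPM, 3 fell and none rose, where 18.7% of all 12205 tested transcripts fell and 23.1% rose. At an unadjusted p under 0.05, 4 of these transcripts were lower and 0 higher (limma). The 3 were the main transcripts of CCN1 and CCN2 and that of LATS2. This count was 5 with totals computed without the mitochondrial mRNAs, and it was 1 without CON replicate 3 and 1 without CDCA replicate 3.

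**Figure D3:**
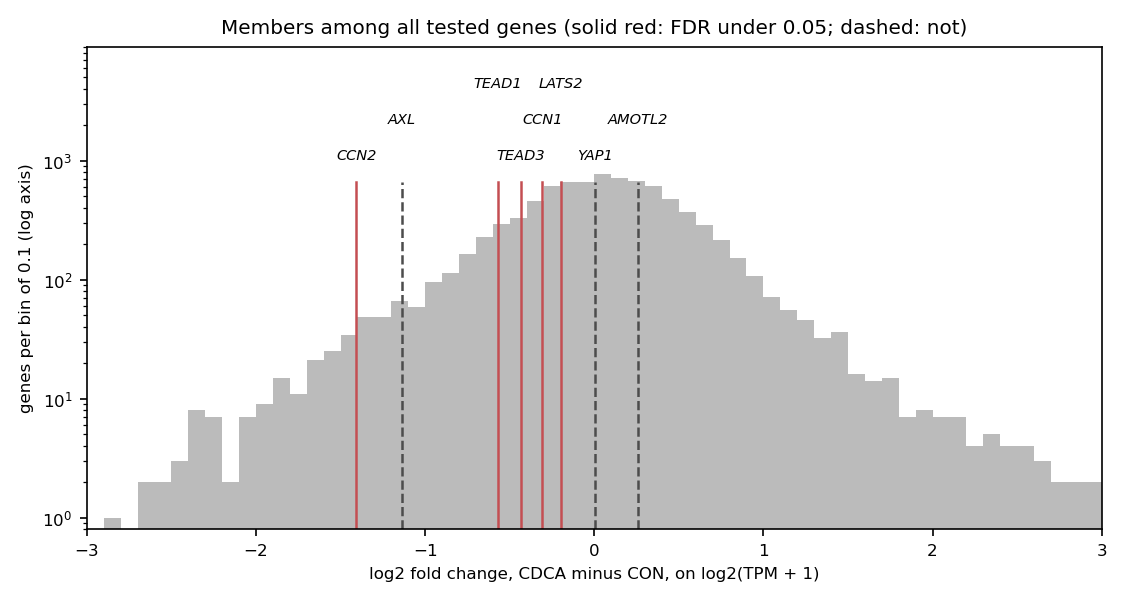
Histogram of the log2 fold change of CDCA minus CON over the 8708 tested genes (bins of 0.1, log scale for the number of genes, with 16 genes outside the range shown), with the 8 tested members as lines, solid red where the FDR was under 0.05. CCN2 (-1.41) stands in the lower tail, while LATS2, CCN1, TEAD3 and TEAD1 lie between -0.20 and -0.57.

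The other genes of the pathway were counted from 6 lists written from general knowledge, with earlier results of these data known. Of their 71 matched genes, 47 were tested, and 12 rose and 8 fell, shares of 25.5% and 17.0%. Over all tested genes these shares were 29.3% and 23.9%. Their median log2 fold change was 0.03.

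In the kinase core and its scaffolds, 13 of 17 genes were tested, 1 rose and 1 fell. WWC1 (KIBRA), a scaffold that promotes LATS activity, fell from 7.53 ± 0.27 to 3.61 ± 0.38 TPM (SD, n = 3 each), which is -0.89 ± 0.09 (SE) as a log2 fold change (limma FDR 0.00023). MAP4K4, a kinase that can act on LATS beside STK3 and STK4, rose from 89.2 ± 0.96 to 115 ± 4.3 TPM (SD, n = 3 each), a log2 fold change of 0.36 (limma FDR 0.00041), which was 0.07 (FDR 0.28) when its most abundant transcript alone was used. STK3, STK4, SAV1, NF2 and LATS1 did not pass the test.

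In the list of inhibitors of the cascade and its regulators at junctions, 13 of 17 genes were tested, 3 rose and 4 fell, and these held larger changes. Not all genes of this list inhibit the cascade, so its counts give no direction for the pathway. AJUBA, a LIM protein that restrains LATS kinases, had 25.22, 25.51 and 25.53 TPM in CON and 9.48, 10.31 and 9.89 TPM in CDCA, and fell with a log2 change of -1.28 (SE 0.05, limma FDR 7.9e-06). FAT1, a giant protocadherin upstream of the pathway, fell from 20.1 ± 0.81 to 8.70 ± 1.2 TPM (SD, n = 3 each), a log2 fold change of -1.13 (limma FDR 0.00013). AMOTL1, an angiomotin related to AMOTL2, fell with a log2 fold change of -0.51 (limma FDR 0.012). In the other direction, RASSF1, a scaffold that binds STK3 and STK4, rose from 10.9 ± 2.7 to 26.2 ± 2.5 TPM (SD, n = 3 each), a log2 fold change of 1.21 (limma FDR 0.0010). STRN (striatin), a scaffold of a phosphatase complex that opposes STK3 and STK4, rose with a log2 fold change of 0.57 (limma FDR 0.00067).

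Of the genes for retention and degradation of YAP1 and WWTR1, 8 of 11 were matched and 7 tested, 2 rose and 1 fell. BTRC, a receptor subunit of the ubiquitin ligase that recognises phosphorylated YAP1, had 2.19, 1.40 and 1.75 TPM in CON and 2.31, 5.51 and 4.43 TPM in CDCA. BTRC rose (log2 fold change 0.82, limma FDR 0.033), but leaving out a library ended the call in 4 cases, with an FDR of 0.078 without CON replicate 3, 0.096 without CON replicate 2, 0.088 without CDCA replicate 2 and 0.094 without CDCA replicate 3. With the replicate number as a block its FDR was 0.067. FBXW11, its close relative, rose with a log2 fold change of 0.31 (limma FDR 0.0022). The value for FBXW11 was 0.22 (FDR 0.062) when its most abundant transcript alone was used, and 0.16 (FDR 0.037) with totals without the mitochondrial mRNAs. Among the 4 tested genes of the other TEAD and VGLL factors, TEAD4 fell and VGLL4, which competes with YAP1 for TEAD binding, rose from 13.2 ± 0.67 to 17.4 ± 0.67 TPM (SD, n = 3 each), which is 0.38 ± 0.06 (SE) as a log2 fold change (limma FDR 0.0020).

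**Figure D4:**
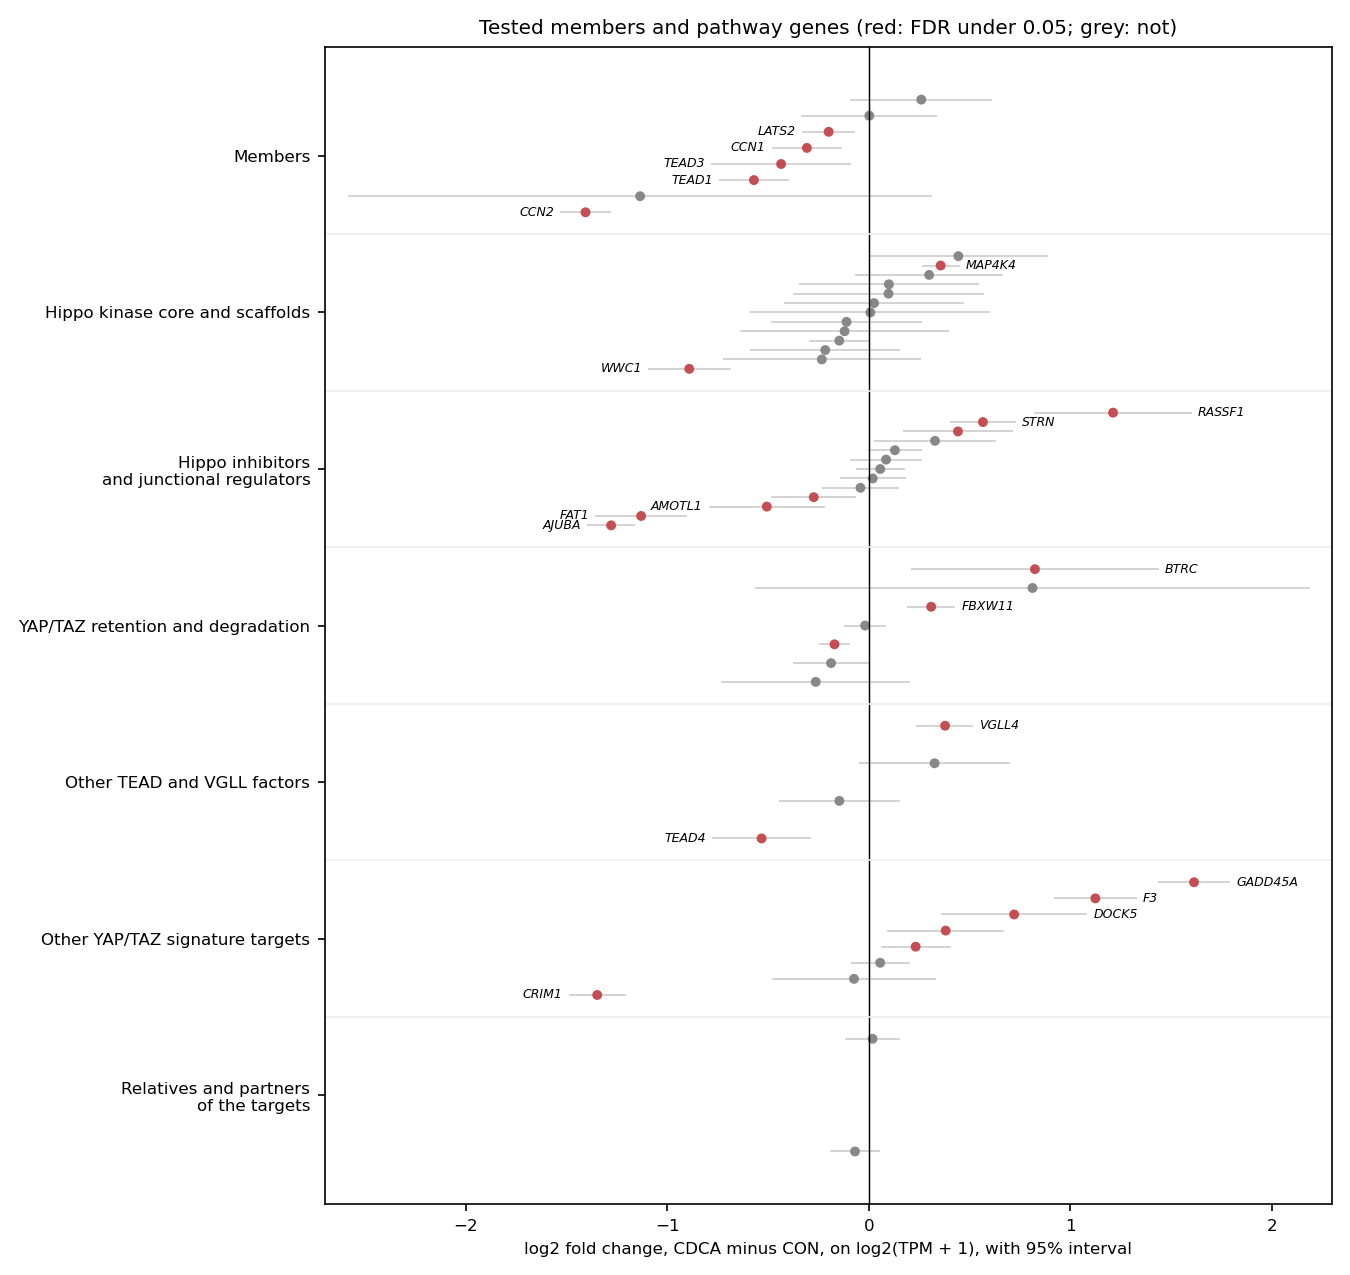
Log2 fold change of CDCA minus CON on log2(TPM + 1) with its 95% interval for the 8 tested members and the tested genes of the 6 pathway lists, 1 point per gene, red where the FDR was under 0.05. The members that passed lie left of 0. Red points of the list of inhibitors and junctional regulators and of the signature target list lie on both sides, from CRIM1 (-1.35) to GADD45A (1.61).

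The list of other YAP/TAZ signature targets lets the targets among the 10 genes be set beside others. Of 16 genes, 14 were matched and 8 tested, and 5 rose (62.5%) and 1 fell (12.5%), beside 29.3% and 23.9% of all tested genes. CRIM1, a transmembrane protein that binds BMP ligands, had 57.51, 61.42 and 55.53 TPM in CON and 23.15, 22.71 and 20.88 TPM in CDCA, a fall close in size to that of CCN2 (log2 fold change -1.35, SE 0.06, limma FDR 1.1e-05). GADD45A, a gene also induced by growth arrest and stress, rose from 53.4 ± 4.1 to 166 ± 12 TPM (SD, n = 3 each), which is 1.61 ± 0.08 (SE) as a log2 fold change (limma FDR 1.3e-05). F3, which encodes tissue factor, had 48.80, 52.65 and 54.65 TPM in CON and 112.45, 103.51 and 129.05 TPM in CDCA, and rose by 1.12 ± 0.09 (SE) on the log2 scale (limma FDR 8.6e-05). DOCK5, an exchange factor for Rac, rose with a log2 fold change of 0.72 (limma FDR 0.0071). The count of genes that rose was 3 with no filter on low values, 3 with totals without the mitochondrial mRNAs, and 3 without CON replicate 1, without CON replicate 2, without CDCA replicate 1 or without CDCA replicate 3.

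Relatives and partners of CCN1, CCN2, ANKRD1 and AXL were mostly low. Of 10 genes, 2 were tested, the AXL ligand GAS6 and the related ligand PROS1, and neither passed (limma, none at an unadjusted p under 0.05). GAS6 had 24.42 to 26.84 TPM in CON and 24.39 to 24.97 TPM in CDCA. The receptors TYRO3 and MERTK, which share ligands with AXL, were at most 0.52 TPM, and CCN3 to CCN6 were at most 0.48 TPM.

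The labelled cell type was checked against its markers. The epithelial genes KRT8, KRT18, EPCAM and CLDN4 were each at 64.61 TPM or more in every library, and CDH1 (E-cadherin) was listed at 0.31 to 0.58 TPM. KRT19 was sought as well but was not matched by name. The 5 matched of 6 epithelial markers summed to 624.15 to 647.36 TPM in CON and 1182.23 to 1321.68 TPM in CDCA, a difference that lay mostly in CLDN4. The 4 endothelial markers came to 2.21 to 2.74 TPM in CON and 1.90 to 2.34 TPM in CDCA. Of these, PECAM1 fell (log2 fold change -0.39, limma FDR 0.025). KDR, too low to test, had 0.38 to 0.51 TPM in CON and 0.64 to 0.84 TPM in CDCA. The leukocyte marker PTPRC (CD45) was at most 0.01 TPM, while CD68, a lysosomal glycoprotein used as a macrophage marker, was listed at 0 to 0.26 TPM in CON and 4.44 to 5.33 TPM in CDCA. Of the 4 leukocyte markers, LYZ had 15.75 to 19.93 TPM over all libraries. The part of these markers in the results for the members was not tested.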

How the data were processed

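RNA-seq of 6 IPEC-J2 libraries (3 CON, 3 CDCA) was used, with groups taken from the sample labels. The authors quantified expression with RSEM and deposited TPM values per listed transcript. Aligner role, annotation release and filters are not given in the sources used here. The submitters' processing notes name Bowtie 0.12.2 and mm10, a mouse build, whereas the gene IDs are those of the pig, so no coordinates are given. The authors tested with edgeR, which needs counts and was not used.

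An Ensembl symbol table named 15029 of the 31908 gene IDs, and with the deposited names 17501 had a symbol. The others were kept under their ID. TPM of a gene's listed transcripts were summed. R 4.3.3 with limma 3.58.1 (lmFit, eBayes with a trend) was run on log2(TPM + 1) for genes, or listed transcripts, with a mean of at least 1 TPM, with Benjamini-Hochberg adjustment over all of them. On this scale the change of a low gene is understated. In simulated data with 100 genes changed by 0.5 and 100 by 1.5 on the log2 scale for this comparison, 96% and 100% were recovered, with 4 unchanged genes passing among 8707 tested. Every simulated gene had the same spread, and far fewer genes were changed than passed in the real data. These shares need not hold for genes with a wider spread, such as AXL (SE 0.61).

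Members and lists were chosen with earlier results of these data known. Named were all 10 members and, of each list, genes past the test with a log2 fold change over 0.5 in size or, where fewer than 2 did this, the 2 largest of those past the test. STK3, STK4, SAV1, NF2, LATS1, MOB1A, TAOK3, TEAD2, GAS6, PROS1 and the low relatives were named after their values were seen. Alternatives were a pseudocount of 0.1 TPM, no filter, 3 other scalings, the highest listed transcript, a replicate block and each library left out.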

Additional observations from a re-analysis of the deposited data

How the results depend on the processing

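Each tested member, and each list gene named by the rule above, was followed under up to 13 alternatives. The genes named after their values were seen were not, and WWTR1 and ANKRD1 were followed only with no filter. The cause of the changes below was not tested. CCN1 and CCN2 kept direction and call under all 13, as did AJUBA, FAT1, WWC1, RASSF1, CRIM1, F3 and GADD45A. TEAD1 lost its call with the highest listed transcript, TEAD3 under 7 alternatives and LATS2 under 2. The log2 fold change of YAP1 was negative with totals without the mitochondrial mRNAs (-0.12), with median-ratio scaling (-0.039), with the highest transcript (-0.022), without CON replicate 2 (-0.103) and without CDCA replicate 3 (-0.112). With each library left out it ran from -0.112 to 0.084. The count of members that fell was 5. It was 3 with the highest transcript, and 3 to 5 with each library left out.

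With the highest transcript, 0 genes of the kinase core rose, and of the retention and degradation list 0 rose and 2 fell. With totals without the mitochondrial mRNAs, 2 kinase core genes fell, 3 retention and degradation genes fell, 3 signature targets rose, 1 relative or partner fell and 5 member transcripts fell. The log2 fold changes of MAP4K4 (0.21), VGLL4 (0.23) and AMOTL2 (0.15) were also smaller under it. With the highest transcript AMOTL2 had 0.02 and AMOTL1 -0.81, AMOTL2 had 0.15 without CON replicate 1, and with a pseudocount of 0.1 TPM AXL had -2.22 and DOCK5 1.26. With median-ratio scaling, 2 kinase core genes fell. With no filter on low values, 1 retention and degradation gene and 3 signature targets rose, and 1 member transcript fell.

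With each library left out, 1 to 2 retention and degradation genes rose and 1 to 2 fell, 3 to 5 signature targets rose and 1 to 4 member transcripts fell.

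The replicate numbers showed no sign of pairing the libraries. The correlation of deviations from the group means across genes was -0.035, -0.092 and -0.051 for the same-numbered libraries. For differently numbered libraries it ran from -0.027 to 0.075. With so few libraries this cannot show that they were unpaired. With the replicate block, 5 members fell, 2 kinase core genes and 1 retention and degradation gene rose, and 2316 of all genes rose and 1902 fell, against 2550 and 2085 without it.

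With no filter on low values, WWTR1 (limma FDR 0.98) and ANKRD1 (limma FDR 0.52) did not pass the test. The number of reads behind each of these TPM values is unknown.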
